A study of Mus musculus with 10 samples.

Results

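The immunoglobulin genes of sorted colon regulatory T cells were described over 161 members of a table of 54532 genes. A member was a row annotated as an immunoglobulin variable (V), diversity (D), joining (J) or constant (C) segment with at least 20 reads summed over the 10 libraries, and Jchain was added by name. Of the 268 immunoglobulin segments in the table, 261 had at least 1 read and 108 stayed under the limit of 20. The members were 144 V segments (65 heavy, 76 kappa, 2 lambda and Gm17472, which lies outside the 3 loci at chr6:42980690-42981150), 12 constant genes, 3 D segments, 1 J segment and Jchain. The constant genes were 8 heavy chain genes, Igkc and the lambda genes Iglc1, Iglc2 and Iglc3. The heavy chain locus lies on chromosome 12, kappa on chromosome 6, lambda on chromosome 16 and Jchain on chromosome 5 (mm10). The members were thus chosen by their annotation and their summed read count, and that count supports no statement about them. Just inside the limit were Ighv1-20 and Igkv8-34 with 20 reads each, and just outside it were Iglj4, Ighv1-66 and Igkv16-104 with 19 reads each. All 19 Iglj4 reads came from 1 library, Tumor replicate 1.

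An antibody is built from heavy and light chains. In a developing B cell, heavy V, D and J segments, and kappa or lambda V and J segments, are joined in the DNA into one exon that is spliced to a constant gene, and later switching of the heavy constant gene sets the isotype. In the gut, plasma cells make mostly IgA, whose heavy chain is encoded by Igha, and the joining chain (Jchain) links IgA or IgM units into polymers that the receptor Pigr carries across the epithelium. T cells use the same joining enzymes on their T cell receptor loci, and they are known to make transcripts from an unrearranged heavy chain locus.

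The Tumor samples were regulatory T cells from colon tumours of male Apc Min/+ mice carrying Foxp3 DTR, and the WT samples were regulatory T cells from the colon of male Foxp3 DTR mice. The Min allele truncates Apc, an inhibitor of Wnt signalling, and gives intestinal tumours. Both groups carried Foxp3 DTR, a diphtheria toxin receptor allele placed under Foxp3 control. Strain (C57BL/6), age (16 weeks) and sorting (CD45, CD3, CD4, CD25 and GFP positive) were the same in both groups, and no label mentions toxin or another treatment. Each group had 5 libraries made by Smart-seq2, which copies whole transcripts from small amounts of RNA, and no label says that they came from separate animals. The p-values therefore refer to the spread among the libraries, which may be technical.

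Total counts were 3054435 to 7747699 per library in Tumor and 1676229 to 8412887 in WT. The 5 genes that define the sort (Ptprc, Cd3e, Cd4, Il2ra and Foxp3) had reads in every library, and their summed level was 1655 to 2785 CPM in Tumor and 86.0 to 982 CPM in WT. A list of 14 T cell genes summed to 4721 to 6691 CPM in Tumor and 167 to 1553 CPM in WT, so T cell RNA took a lower share of every WT library. Fewer cells of a type and less RNA per cell cannot be told apart in such bulk samples. A CPM value is a gene's count scaled to a library total of 1000000 counts.

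The sequences below are shown because the light and heavy chain results turn on telling near-identical segments apart. They are coding parts of the reference transcripts (GENCODE M21, GRCm38, all on the minus strand), not sequences read from these samples, and at most 300 bases of each are printed. Iglc1 (chr16:19061618-19062071), Iglc2 (chr16:19198396-19200351) and Iglc3 (chr16:19065230-19065681) encode lambda constant regions, and their first 300 bases are given, for Iglc2 counted from its second base so that it lines up with Iglc3. Capitals in Iglc3 mark the 11 bases that differ from Iglc2. Iglc2 and Iglc3 were 96.2% identical, while Iglc1 was 73.5% identical to Iglc2 and 74.8% to Iglc3.
Iglc1: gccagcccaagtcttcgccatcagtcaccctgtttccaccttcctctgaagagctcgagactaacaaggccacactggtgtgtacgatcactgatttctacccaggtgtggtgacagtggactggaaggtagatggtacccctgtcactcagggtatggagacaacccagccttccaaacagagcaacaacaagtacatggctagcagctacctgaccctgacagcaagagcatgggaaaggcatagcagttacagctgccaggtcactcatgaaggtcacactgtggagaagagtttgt
Iglc2: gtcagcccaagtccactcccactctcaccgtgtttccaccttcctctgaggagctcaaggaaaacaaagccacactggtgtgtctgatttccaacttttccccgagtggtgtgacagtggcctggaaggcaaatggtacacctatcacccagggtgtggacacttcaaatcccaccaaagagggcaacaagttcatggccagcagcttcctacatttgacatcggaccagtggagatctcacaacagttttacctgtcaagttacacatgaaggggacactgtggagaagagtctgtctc
Iglc3: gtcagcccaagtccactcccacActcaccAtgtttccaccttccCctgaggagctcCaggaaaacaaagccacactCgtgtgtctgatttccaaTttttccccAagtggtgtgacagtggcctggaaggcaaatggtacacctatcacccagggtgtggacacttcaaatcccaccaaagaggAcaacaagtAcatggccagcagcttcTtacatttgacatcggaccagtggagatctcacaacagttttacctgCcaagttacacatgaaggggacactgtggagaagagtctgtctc

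The lambda V segments Iglv1 (chr16:19085017-19085500) and Iglv2 (chr16:19260401-19260859) were 96.9% identical, with 11 differing bases. Their last 300 bases (52 to 351) are given, and capitals in Iglv2 mark the 8 of the 11 that fall there.
Iglv1: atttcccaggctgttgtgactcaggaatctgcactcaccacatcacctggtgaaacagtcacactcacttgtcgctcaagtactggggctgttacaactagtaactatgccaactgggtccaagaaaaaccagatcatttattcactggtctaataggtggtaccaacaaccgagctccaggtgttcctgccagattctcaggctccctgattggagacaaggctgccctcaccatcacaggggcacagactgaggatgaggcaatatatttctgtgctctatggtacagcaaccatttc
Iglv2: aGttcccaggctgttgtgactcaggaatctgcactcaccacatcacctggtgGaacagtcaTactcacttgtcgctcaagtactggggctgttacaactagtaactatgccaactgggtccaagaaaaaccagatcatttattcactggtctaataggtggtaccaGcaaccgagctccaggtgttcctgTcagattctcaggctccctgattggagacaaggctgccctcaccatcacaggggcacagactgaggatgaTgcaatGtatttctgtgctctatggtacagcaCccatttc

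Ighv1-76 (chr12:115847881-115848331) was the leading heavy V segment of Tumor replicate 1, and Igkv10-96 (chr6:68631963-68632442) tied with Igkv1-117 as its leading light V segment. Both were chosen after their values were seen. The last 300 bases of each are given, with no base marked.
Ighv1-76: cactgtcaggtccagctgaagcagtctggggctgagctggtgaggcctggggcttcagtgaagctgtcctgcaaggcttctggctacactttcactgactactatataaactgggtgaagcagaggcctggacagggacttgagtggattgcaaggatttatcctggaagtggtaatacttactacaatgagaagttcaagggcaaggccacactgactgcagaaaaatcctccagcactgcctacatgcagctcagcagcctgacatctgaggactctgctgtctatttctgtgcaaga
Igkv10-96: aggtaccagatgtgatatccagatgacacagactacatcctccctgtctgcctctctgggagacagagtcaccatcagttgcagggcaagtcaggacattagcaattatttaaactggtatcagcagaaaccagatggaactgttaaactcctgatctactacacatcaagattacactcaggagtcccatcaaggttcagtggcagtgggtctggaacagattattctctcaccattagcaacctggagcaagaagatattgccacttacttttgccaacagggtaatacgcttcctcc

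The members were a small and uneven share of the reads. They took 0.345%, 0.0250%, 0.0301%, 0.0311% and 0.0262% of all counts in Tumor replicates 1 to 5, against 0.0161%, 0.0161%, 2.06%, 0.236% and 0.0661% in WT replicates 1 to 5. Tumor replicate 1, WT replicate 3 and WT replicate 4 stood above the other 7 libraries, and the groups overlapped. In those 3 libraries Igha, Igkc and Jchain together made up 84.2%, 83.2% and 80.1% of the member reads. In the other libraries the same 3 genes made up 2.75%, 8.02%, 5.11% and 1.81% in Tumor replicates 2 to 5, against 10.6%, 11.7% and 12.8% in WT replicates 1, 2 and 5. The libraries high in immunoglobulin thus differed from the rest in which members carried the reads as well as in the amount. Because these libraries carry most of the member reads, values below are given by library, and group values rest on them.

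**Figure D1:**
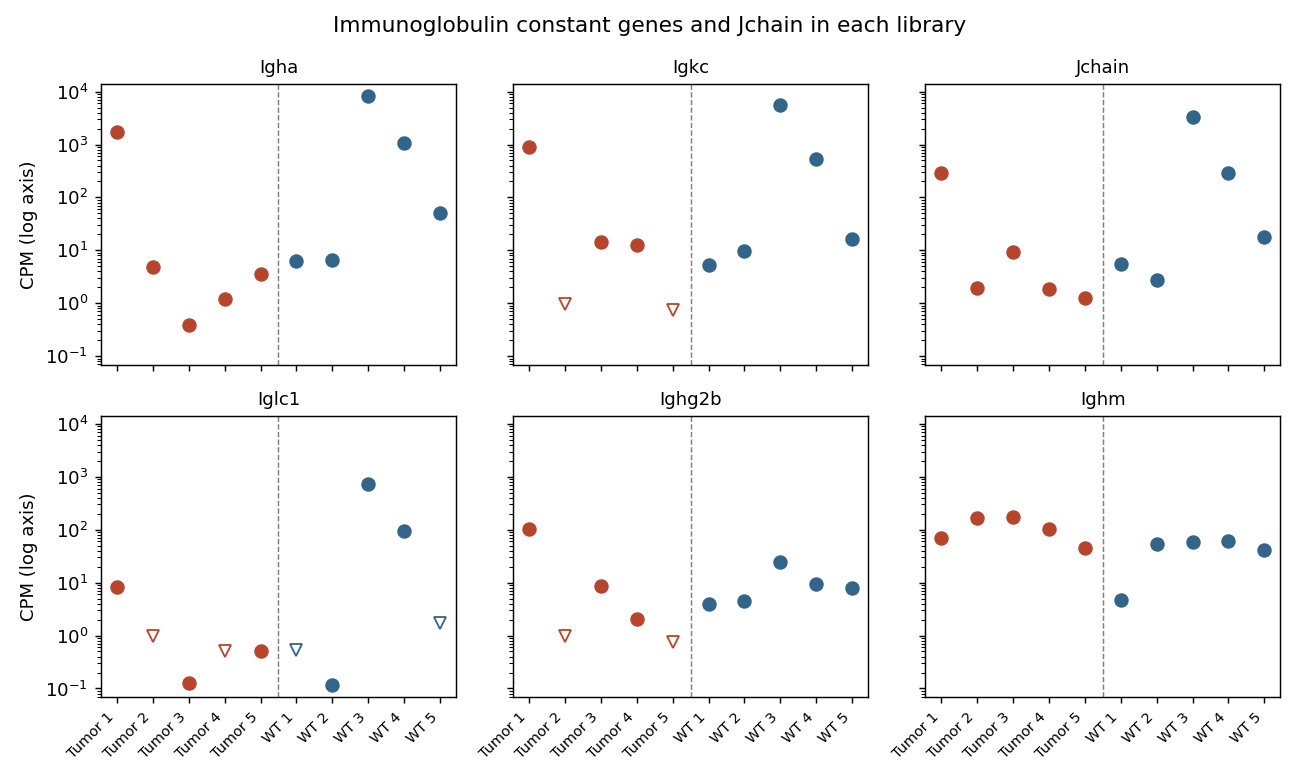
Levels of Igha, Igkc, Jchain, Iglc1, Ighg2b and Ighm in each library, in CPM on a log axis, Tumor left of WT. Points are libraries and open triangles stand for 0 reads, drawn at the level of 3 reads. Igha, Igkc and Jchain were highest in Tumor replicate 1 and in WT replicates 3 and 4, while Ighm lay between 45.8 and 176 CPM in Tumor and between 4.72 and 61.5 CPM in WT.

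Igha, the heavy chain of IgA, was at 1733, 4.91, 0.387, 1.21 and 3.50 CPM in Tumor replicates 1 to 5, against 6.29, 6.54, 8105, 1084 and 50.1 CPM in WT replicates 1 to 5. The lowest value, in Tumor replicate 3, came from 3 reads. The mean was 348.5 ± 774 CPM in Tumor and 1850.3 ± 3526 CPM in WT (SD, n = 5 each), so the spread within each group exceeded its mean. The median was 3.50 CPM in Tumor and 50.1 CPM in WT. With all 10 libraries the groups overlapped. Without Tumor replicate 1, every remaining Tumor library was below every WT library, but that library was picked after its value was seen. With it left out, 0 of 11 members tested and 127 of 23323 genes were called between the groups (edgeR, adjusted p below 0.05).

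Igkc, the kappa constant gene, was at 888, 0, 14.5, 12.8 and 0 CPM in Tumor, against 5.24, 9.51, 5674, 521 and 16.7 CPM in WT. The 2 Tumor libraries without an Igkc read were replicates 2 and 5, where 3 reads, the upper limit that a count of 0 allows, would be 0.982 and 0.751 CPM. Jchain was at 286, 1.96, 9.29, 1.90 and 1.25 CPM in Tumor, against 5.59, 2.73, 3359.9, 286 and 17.8 CPM in WT. The mean of Jchain was 60.2 ± 127 CPM in Tumor and 734 ± 1473 CPM in WT (SD, n = 5 each). As with Igha, 1 Tumor library and 2 WT libraries carried both means, and the groups overlapped.

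Per kilobase of gene, the 3 high libraries differed in how these genes stood to each other. Igkc was 2.57 times Igha in Tumor replicate 1, against 3.51 times in WT replicate 3 and 2.41 times in WT replicate 4. Jchain was 0.175 times Igha in Tumor replicate 1, against 0.439 and 0.280 times in WT replicates 3 and 4. The gap was wider for Iglc1, which was 0.0278 times Igha in Tumor replicate 1, against 0.526 and 0.510 times in WT replicates 3 and 4.

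Lambda light chains set the 2 high WT libraries apart from the high Tumor library. Iglc1 had 32, 0, 1, 0 and 2 reads in Tumor, against 0, 1, 1217, 254 and 0 reads in WT. Iglc2 had 0, 0, 0, 10 and 0 reads in Tumor, against 4, 0, 235, 114 and 4 in WT. Iglc3 had no read in any Tumor library, against 0, 0, 6, 23 and 3 in WT. Lambda genes made up 0.915% of light chain constant reads in Tumor replicate 1 (exact 95% interval 0.627% to 1.29%), against 13.3% in WT replicate 3 (12.7% to 13.9%) and 21.75% in WT replicate 4 (19.9% to 23.7%). These intervals do not overlap. They cover counting error alone, since the reads carry no molecular identifiers and amplification copies count as reads. Per kilobase of gene the lambda shares were 1.07% in Tumor replicate 1, against 14.7% in WT replicate 3, outside its interval, and 23.15% in WT replicate 4. In the other 7 libraries the light constant genes had 0, 113, 84 and 2 reads in Tumor replicates 2 to 5, against 34, 81 and 36 in WT replicates 1, 2 and 5, too few for a narrow interval. Given the identity of Iglc2 and Iglc3 printed above, the split of reads between those genes is uncertain.

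The lambda V reads followed the lambda constant reads only in part, since Tumor replicate 1 had more Iglv1 reads than WT replicate 4. Iglv1 had 77, 0, 0, 4 and 19 reads in Tumor, against 1, 1, 620, 23 and 2 in WT. Iglv2 had 0, 0, 4, 0 and 0 reads in Tumor, against 8, 11, 0, 4 and 0 in WT. Iglv1 thus had most of its reads in the library that also led for Iglc1, while no Iglv2 read came from that library. Tumor replicate 1, with 77 Iglv1 reads, had 32 Iglc1 reads, so its ratio of constant to V reads was below that of WT replicate 3.

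The isotype makeup of the heavy constant reads set Tumor replicate 1, WT replicate 3 and WT replicate 4 apart from the other libraries. Igha made up 90.0% of heavy constant reads in Tumor replicate 1 (exact 95% interval 89.4% to 90.7%), against 97.3% in WT replicate 3 (97.0% to 97.5%) and 89.6% in WT replicate 4 (88.5% to 90.6%). Per kilobase of gene these shares were 88.6%, 96.4% and 86.5%, each below its interval, which covers counting error alone. In Tumor replicates 2 to 5 Igha made up 2.84%, 0.196%, 1.06% and 5.26%, against 17.1%, 9.0% and 38.0% in WT replicates 1, 2 and 5. Ighm, the heavy chain of IgM, made up 96.4%, 89.2%, 92.5% and 68.8% in Tumor replicates 2 to 5, against 12.8%, 75.6% and 31.4% in WT replicates 1, 2 and 5. The 4 IgG genes together made up 6.10%, 0.567%, 7.12%, 5.63% and 13.5% in Tumor, against 48.8%, 10.47%, 1.75%, 3.15% and 22.7% in WT. WT replicate 1, with the highest IgG share, had 211 heavy constant reads in all.

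**Figure D2:**
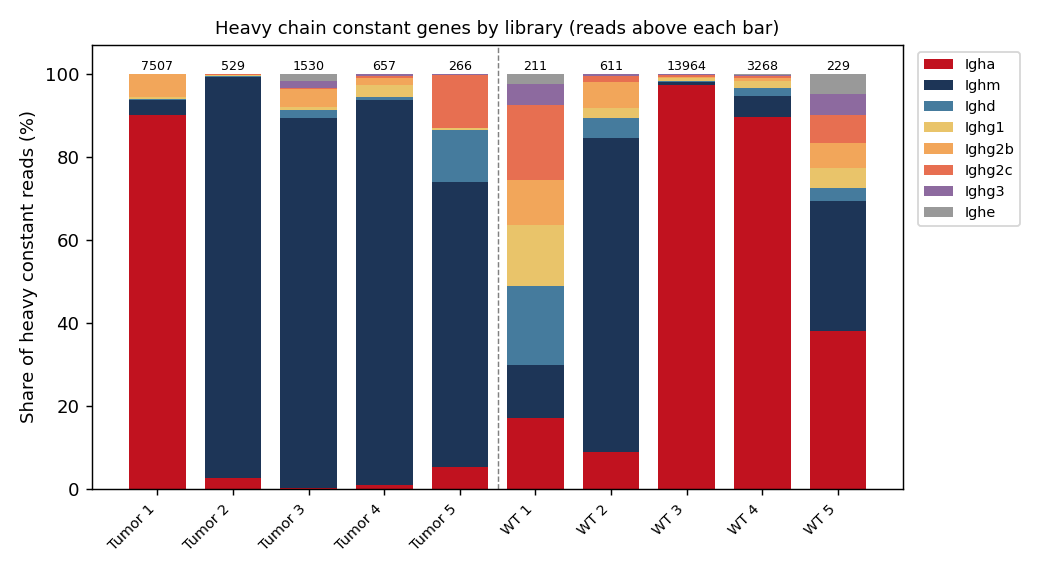
Share of heavy chain constant reads, in percent, taken by each isotype in each library, Tumor left of WT, with the number of reads above each bar. Igha fills 90.0%, 97.3% and 89.6% of Tumor replicate 1, WT replicate 3 and WT replicate 4, and Ighm fills 68.8% to 96.4% of Tumor replicates 2 to 5.

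Among the IgG genes, Ighg2b had 406, 0, 68, 12 and 0 reads in Tumor, against 23, 38, 41, 26 and 14 in WT. It made up 5.41% of heavy constant reads in Tumor replicate 1 (4.91% to 5.94%), against 0.294% in WT replicate 3 (0.211% to 0.398%) and 0.796% in WT replicate 4 (0.520% to 1.16%). The Igha-rich Tumor library therefore held a higher Ighg2b share than either Igha-rich WT library. Ighg1 had 47, 1, 11, 19 and 1 reads in Tumor, against 31, 15, 96, 55 and 11 in WT. Ighg2c had 2, 2, 3, 2 and 34 reads in Tumor, against 38, 8, 71, 14 and 15 in WT. For Ighg2c 1 Tumor library, replicate 5, held most Tumor reads. Ighg3 (3, 0, 27, 4 and 1 reads in Tumor, against 11, 3, 37, 8 and 12 in WT) and Ighe, the heavy chain of IgE (3, 0, 26, 0 and 0 reads in Tumor, against 5, 1, 2, 10 and 11 in WT), were highest within Tumor in replicate 3. The coding sequences of Ighg2b and Ighg2c were 87.8% identical, so reads in shared stretches may have been split between them.

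Ighm had reads in every library, with 36.3% of them in Tumor replicate 3. Its level was 69.2, 167, 176, 105 and 45.8 CPM in Tumor, against 4.72, 54.9, 59.1, 61.5 and 41.5 CPM in WT. The mean was 113 ± 57.9 CPM in Tumor and 44.3 ± 23.5 CPM in WT (SD, n = 5 each), and the groups overlapped. Beside 270, 510, 1364, 608 and 183 Ighm reads, Tumor replicates 1 to 5 had 3496, 0, 113, 84 and 2 light constant reads and 786, 152, 390, 652 and 399 light V reads. The T cell genes moved with the group. Counted per 1000 reads of the T cell list, Ighm had 14.0, 31.5, 26.3, 19.9 and 9.70 reads in Tumor, against 28.3, 107.4, 43.2, 39.6 and 72.8 in WT. On that scale the WT libraries were higher, apart from an overlap between Tumor replicate 2 and WT replicate 1, and the part of T cell content in the difference was not tested. Ighd, the heavy chain of IgD that naive B cells make beside IgM, had 16, 1, 28, 5 and 33 reads in Tumor, against 40, 29, 33, 62 and 7 in WT.

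No member was called between Tumor and WT. Of the 161 members, 8 passed the filter on low counts, which is set on the group size and not on the direction: Igha, Ighm, Ighd, Ighg1, Ighg2b, Ighg2c, Igkc and Jchain. No V, D, J or lambda segment passed. With edgeR's quasi-likelihood test and Benjamini-Hochberg adjustment over 21414 genes, 0 of the 8 had an adjusted p below 0.05, where 340 genes (1.59%) were called in either direction and 47 (0.219%) lower in Tumor. At an unadjusted p below 0.05, 2 of the 8 passed, Ighm and Ighg2c, as did 3439 of the 21414 genes. With limma voom 0 members were called. The median log2 fold change, Tumor over WT, was -2.01 over the 8 members, 2 above 0 and 6 below, beside -0.20 over all genes, 9374 above 0 and 12040 below.

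The log2 fold change of Ighm was 1.65 ± 0.64 (SE, n = 5 per group, edgeR adjusted p = 0.214) and that of Ighg2b was 1.48 ± 1.26 (adjusted p = 0.572). Below 0 lay Ighd at -1.59 ± 0.94 (adjusted p = 0.409), Igha at -1.97 ± 2.08 (adjusted p = 0.659) and Ighg1 at -2.05 ± 1.08 (adjusted p = 0.358). Igkc was at -2.32 ± 2.05 (adjusted p = 0.594), Ighg2c at -2.43 ± 1.11 (adjusted p = 0.293) and Jchain at -3.15 ± 1.85 (adjusted p = 0.413). The standard errors of Igha, Igkc and Jchain were the 3 widest, from 1.85 to 2.08 on the log2 scale. For Igha the value was -9.13 without Tumor replicate 1 and 0.48 without WT replicate 3, for Igkc -7.02 and 0.59, so leaving out WT replicate 3 turned the sign of both. Without Tumor replicate 1, Ighg2b turned to -1.46.

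Scaling the libraries to the T cell list moved all genes, to a median log2 fold change of -3.72. By that scaling 91.9% of genes were called lower in Tumor, and 7 of the 8 members were among them (Ighg2b was the exception, at -1.70). Ighm turned to -1.59 ± 0.74 (edgeR adjusted p = 0.0441), which is above the median of all genes, and Igha, Igkc, Jchain, Ighd, Ighg1 and Ighg2c lay between -4.38 and -5.62. Read against that background, the count of 7 is no result about the members.

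**Figure D3:**
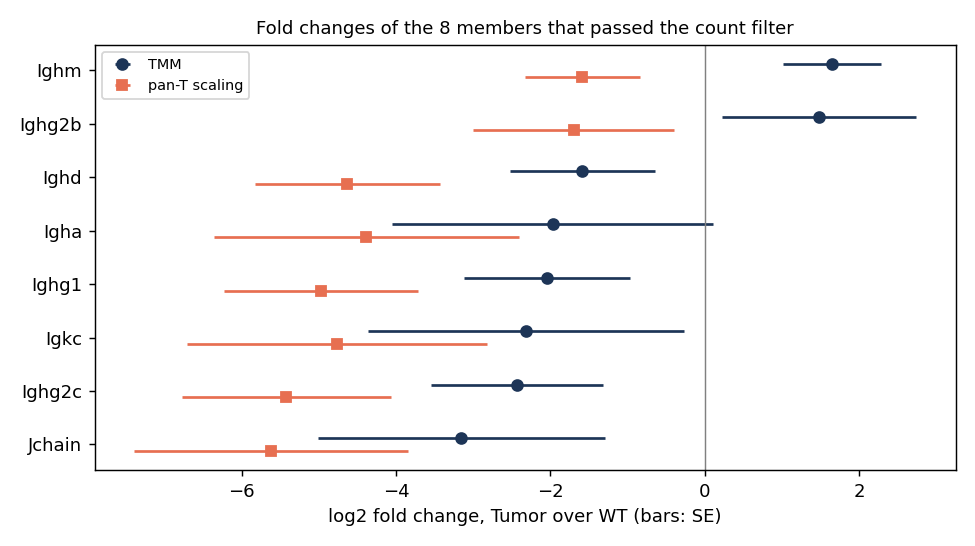
The log2 fold change of the 8 members that passed the filter, Tumor over WT, with TMM scaling (circles) and with scaling to the T cell list (squares), and bars of 1 SE. With TMM scaling 2 lie above 0 and 6 below and none was called; with T cell scaling all 8 lie below 0, where the median of all genes was -3.72.

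Segments under the filter were tested by other settings. Without a filter, edgeR called 7 of 161 members lower in Tumor (4.35%), where 0.665% of 51296 genes were called lower. Those genes needed only 1 read, while members needed 20, so the shares have unlike bases. The 7 members were Ighv1-53, Ighv1-9, Ighv3-6, Ighv5-9, Igkv1-35, Igkv2-109 and Igkv3-12. Of the reads of these 7, 54.3% to 95.3% came from 1 library, WT replicate 3 or WT replicate 5, and the groups overlapped for each. DESeq2 called 10 of the 89 members it gave an adjusted p (11.2%) lower in Tumor, where it called 4.41% of genes lower. Its values lay lower in Tumor over all genes as well, with a median log2 fold change of -0.704 and 1539 genes called lower against 633 higher. Those 10 were Ighd5-7, Ighv1-31, Ighv2-5, Ighv3-6, Ighv7-3, Igkv17-127, Igkv3-10, Igkv5-43, Igkv6-15 and Igkv9-124. For them 41.4% to 90.0% of reads came from 1 WT library, and their groups overlapped too. Ighv3-6 was the 1 segment called by both. The CPM of the groups did not overlap for 2 of 161 members, where 4.43% of the 40334 genes with at least 20 reads did not overlap. Igkv4-57-1 had 2, 0, 0, 5 and 0 reads in Tumor, against 5, 22, 25, 4 and 2 in WT. Ighv1-20 had 0, 0, 0, 0 and 1 reads in Tumor, against 8, 6, 1, 3 and 1 in WT. Both were lower in Tumor, on few reads.

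V segment reads were sparse and scattered. The V members together had 1321, 225, 599, 1050 and 773 reads in Tumor, against 644, 626, 3959, 505 and 769 in WT. No V member had reads in all 10 libraries; the number of libraries with reads ran from 2 to 9 with a median of 6. For 92 of the 144, over 50% of the reads came from 1 library, and the median share of the leading library was 60.2%. Members were chosen by their summed count, so a segment could enter through 1 high library. The same share was not taken for other genes with as few reads. Whether such scatter is particular to V segments was therefore not tested. Counted in reads, 46 V members were highest in WT replicate 3, and 11, 4, 14, 19 and 17 were highest in Tumor replicates 1 to 5. The reads were not scaled to library totals here, which favours the libraries with larger totals. WT replicates 1, 2, 4 and 5 led for 8, 9, 8 and 8 members.

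V reads were then set beside 2 classes that are not known to serve in T or plasma cells. Olfactory and vomeronasal receptor genes (1464 in the table) belong to sensory neurons, and V pseudogenes (155 in the table) lie within the same loci. Densities were taken over all 222 V segments in the table, members or not. Per kilobase, V segments were at 4.39, 1.07, 1.02, 2.40 and 2.50 CPM in Tumor, against 1.65, 1.03, 29.5, 2.77 and 6.31 CPM in WT. The receptor genes were at 1.83, 1.28, 0.836, 1.32 and 2.20 CPM per kilobase in Tumor, against 1.71, 1.05, 5.33, 2.33 and 4.37 in WT. The V pseudogenes were at 2.49, 1.57, 0.818, 1.83 and 3.35 in Tumor, against 2.38, 1.45, 7.53, 2.64 and 9.71 in WT. V segments stood 2.39 times above the receptor genes in Tumor replicate 1 and 5.54 times in WT replicate 3. In the other 8 libraries the ratio ran from 0.839 to 1.82, and the ratio to the V pseudogenes ran from 0.650 to 1.31. WT replicate 4, rich in Igha and Igkc, had a V level 1.19 times that of the receptor genes.

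**Figure D4:**
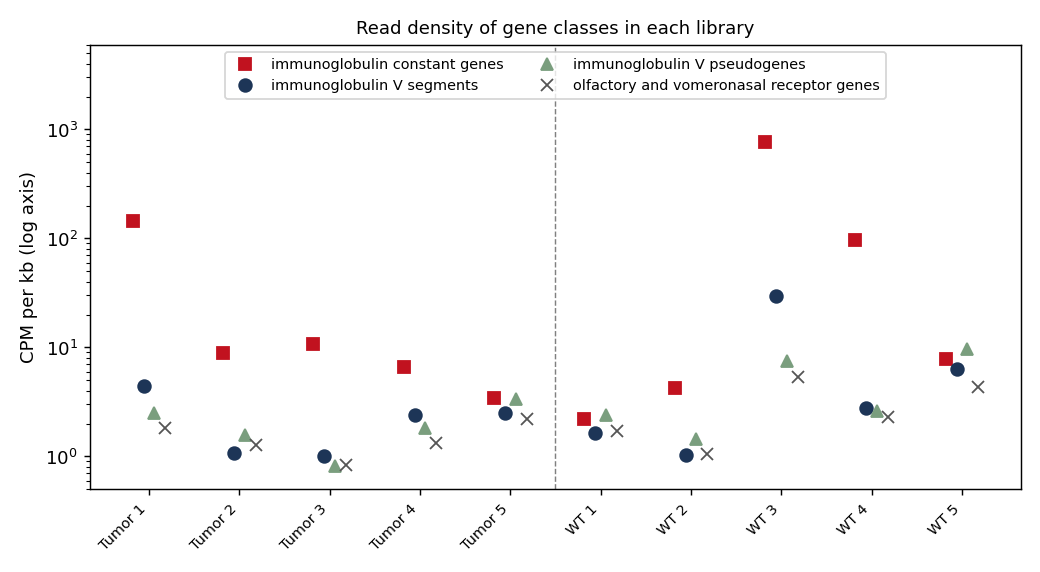
Read density per library, in CPM per kilobase on a log axis, of immunoglobulin constant genes, V segments, V pseudogenes, and olfactory and vomeronasal receptor genes, Tumor left of WT. Constant genes reach 144 in Tumor replicate 1 and 762 in WT replicate 3, while V segments reach 4.39 and 29.5 in these libraries.

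Constant genes stood further from this level than V segments did. Summed over the 13 constant genes in the table, 1 of them no member, the density was 144, 8.88, 10.9, 6.56 and 3.44 CPM per kilobase in Tumor, against 2.20, 4.22, 762, 96.2 and 7.82 in WT. In WT replicates 1 and 5 it was below that of the V pseudogenes. Ighm alone was at 36.7, 88.5, 93.4, 55.6 and 24.3 CPM per kilobase in Tumor, against 2.50, 29.1, 31.3, 32.6 and 22.0 in WT. Ighm exceeded the heavy V segments in every library of both groups. Those segments were at 3.62, 0.777, 0.719, 1.83 and 2.31 CPM per kilobase in Tumor, against 1.418, 0.8633, 16.8, 3.004 and 4.935 in WT. The T cell receptor constant genes, measured the same way, were at 118 to 194 CPM per kilobase in Tumor and 4.64 to 52.1 in WT. The T cell receptor V segments were at 1.61 to 6.59 times the level of the sensory receptor genes in Tumor, and at 0.588 to 1.18 times in WT.

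V usage is the share of a library's heavy or light V reads taken by each segment. In Tumor replicate 1, Ighv1-76 took 34.0% of 535 heavy V reads (exact 95% interval 30.0% to 38.2%) and Ighv2-9-1 took 16.8%. Ighv6-4 led in Tumor replicate 2 with 33.3% of 72 reads (22.7% to 45.4%). The leaders of Tumor replicates 3, 4 and 5 were Ighv9-2, Ighv2-9-1 and Ighv1-19, with 17.2%, 17.2% and 13.5%. In WT replicates 1 to 5 the leaders were Ighv1-18 (10.51%), Ighv2-6-8 (24.7%), Ighv1-9 (10.4%), Ighv2-5 (13.2%) and Ighv1-84 (21.5%). Thus, by read count, 10 libraries had 10 different leading heavy V segments. Per kilobase, Ighv1-74 led in Tumor replicate 5 and Ighv1-11 in WT replicate 4. Outside Tumor replicate 1 and WT replicate 3, V density was only 0.839 to 1.82 times that of the sensory receptor genes.

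The inverse Simpson index gives the number of equally used segments that would make the same spread. For heavy V reads it was 5.96, 5.90, 12.2, 12.2 and 10.98 in Tumor, against 18.9, 9.50, 19.7, 15.9 and 8.54 in WT. The groups overlapped, and the index also moves with the number of reads, which was lowest (72) in Tumor replicate 2. WT replicate 3, with 1124 heavy V reads, had the highest index, and Tumor replicate 1, with 535, the second lowest.

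Light V reads gave a similar picture. In Tumor replicate 1, Igkv1-117 and Igkv10-96 had 173 reads each, 22.0% apiece of 786 light V reads (19.2% to 25.1%). Igkv19-93 (26.3%), Igkv10-95 (12.1%), Igkv8-21 (18.1%) and Igkv3-1 (14.3%) led in Tumor replicates 2 to 5. In WT replicates 1 and 2, Igkv8-26 (5.60%) and Igkv6-29 (7.97%) led. In WT replicate 3, Iglv1 led with 21.9% of 2834 reads (20.4% to 23.4%), and the next, Igkv14-111, took 4.48%. Igkv13-85 (12.02%) led in WT replicate 4 ahead of Iglv1 (9.87%), and Igkv1-35 (20.95%) in WT replicate 5 ahead of Igkv8-19 (18.3%). The index for light V reads was 8.11, 6.35, 17.2, 14.4 and 12.2 in Tumor, against 37.2, 21.9, 14.8, 19.8 and 10.1 in WT.

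**Figure D5:**
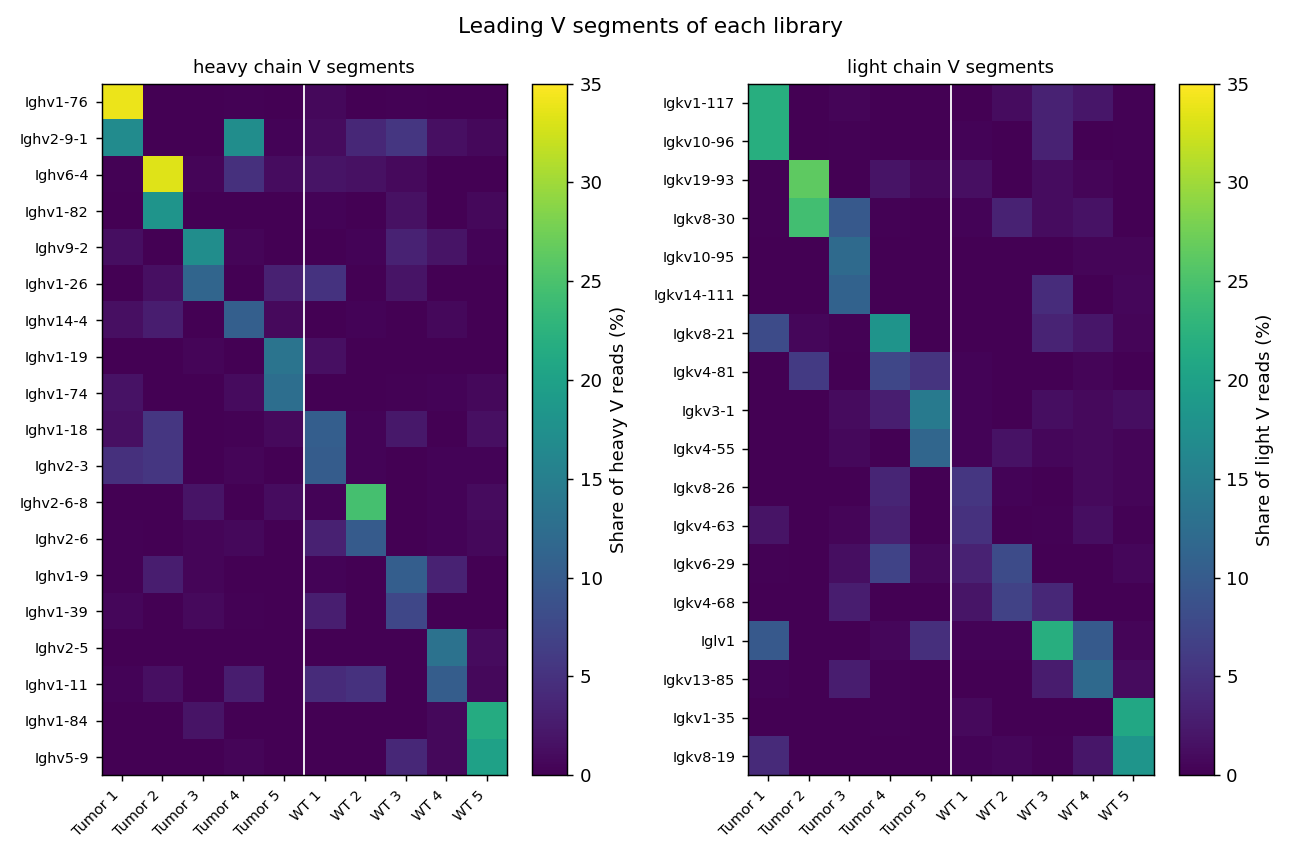
Share, in percent, of heavy V reads (left panel) and light V reads (right panel) taken by the leading and next V segments of each library, Tumor columns left of WT. The leading segment of one library takes a small share in most others, as for Ighv1-76 (34.0% in Tumor replicate 1) and Iglv1 (21.9% in WT replicate 3).

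By family, Ighv1, the largest heavy V family, held 33 of the 65 heavy V members (50.8%). It took 58.1%, 37.5%, 56.5%, 28.4% and 62.8% of heavy V reads in Tumor, against 65.2%, 22.0%, 54.5%, 40.1% and 57.4% in WT. Igkv4, with 21 of 76 kappa V members (27.6%), took 8.74%, 18.4%, 20.5%, 40.4% and 46.8% of kappa V reads in Tumor, against 37.1%, 47.7%, 22.5%, 15.1% and 20.2% in WT. Family shares overlapped between the groups for both. The 37 V segments named here as leaders or runners-up by library were 78.7% to 98.6% identical to the nearest other V segment (median 95.4%), and 19 were at least 95% identical. Reads from such segments may have been assigned to either copy or dropped.

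Kappa V reads occurred without kappa constant reads. Tumor replicates 2 and 5 had 152 and 380 kappa V reads and no Igkc read. Tumor replicate 1 had 709 kappa V reads beside 3464 Igkc reads, while WT replicate 3 had 2214 beside 9511, WT replicate 4 had 206 beside 1407 and WT replicate 1 had 348 beside 30.

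D and J segments contributed 4 members. They are printed because of their length, 10 to 53 bases, which leaves little room for a read. The segments are Ighd5-7 (chr12:113464524-113464552), Ighd4-1 (chr12:113430528-113430538), Ighd5-4 (chr12:113460101-113460110) and Ighj1 (chr12:113429781-113429833), minus strand, with no base marked.
Ighd5-7: aggcagctagcctctgcagtgccacaacc
Ighd4-1: ctaactgggac
Ighd5-4: gaatacctac
Ighj1: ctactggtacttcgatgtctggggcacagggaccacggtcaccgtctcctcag

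Ighd5-7 had 0, 0, 1, 0 and 0 reads in Tumor, against 0, 3, 0, 9 and 47 in WT. Ighd5-4 had no read in Tumor, against 0, 0, 0, 24 and 1 in WT. Ighd4-1, the D segment nearest to the J segments, had 17, 3, 5, 0 and 3 reads in Tumor, against 0, 8, 0, 1 and 25 in WT. Ighj1 had 8, 0, 12, 0 and 0 reads in Tumor, against 2, 0, 0, 1 and 10 in WT. Most reads of Ighd5-7 and Ighd4-1 in WT came from replicate 5, and WT replicate 3, highest in Igha, had no read on any of the 4.

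Genes of plasma and B cells were examined beside the members. Over all 21414 genes tested, 293 were called higher in Tumor and 47 lower. Of 15 plasma cell genes 12 were tested, 2 rose and none fell in Tumor: Prdm1, a regulator of plasma cells that regulatory T cells also express, by a log2 fold change of 2.92 ± 0.57 (SE, edgeR adjusted p = 0.0157), and Tnfrsf13b, a receptor for BAFF and APRIL, by 2.78 ± 0.68 (adjusted p = 0.0436). Both lay above 0 in each of 21 alternatives without T cell scaling. The call of Prdm1 held in 16 (adjusted p 0.000646 to 0.0689) and that of Tnfrsf13b in 9 (0.000646 to 0.164), being lost with RLE (0.0753) and upper-quartile (0.0926) factors among others. With T cell scaling, which moved the median of all genes to -3.72, they were at -0.54 and -0.55. The list summed to 501 to 802 CPM in Tumor and 138 to 905 CPM in WT. Mzb1, which aids antibody assembly in plasma cells, had 21, 1, 1, 2 and 0 reads in Tumor, against 2, 1, 156, 21 and 5 in WT. Tnfrsf17, the plasma cell receptor BCMA, had 1, 5, 2, 3 and 5 reads in Tumor, against 8, 0, 67, 5 and 1 in WT. In CPM Mzb1 was highest in the 3 libraries rich in Igha, and both genes are named after their values were seen. The 15 genes did not move as a block: 4 had their highest CPM in WT replicate 3 (Eaf2, Pou2af1, Mzb1 and Tnfrsf17) and 4 in WT replicate 2, which was low in Igha (Ssr4, Xbp1, Sdc1 and Txndc5). The part of plasma cell RNA in the immunoglobulin levels was not tested. Of 17 B cell genes 16 were tested and 0 were called, and the list summed to 123 to 200 CPM in Tumor and 183 to 625 CPM in WT.

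Genes that carry or bind antibody gave 3 calls among 9 tested of 12, where 293 of all 21414 genes tested were called higher in Tumor. The Fc receptor genes Fcgr3 (3.74 ± 0.62, adjusted p = 0.00612), Fcer1g (3.71 ± 0.85, adjusted p = 0.0336) and Fcgr4 (3.36 ± 0.80, adjusted p = 0.0395) rose in Tumor by edgeR's test with TMM scaling. Without T cell scaling the call of Fcgr3 held in 21 of 21 alternatives, that of Fcer1g in 12 of 21 (adjusted p up to 0.0993) and that of Fcgr4 in 8 of 20 (up to 0.14). With T cell scaling they were at 0.33, 0.18 and -0.0013, where the median of all genes was -3.72. Macrophage and monocyte genes, which myeloid cells express together with these receptors, moved with them: the list summed to 1304 to 5946 CPM in Tumor and 45.8 to 166 CPM in WT, and 5 of 9 tested (Apoe, C1qa, C1qb, C1qc and Lyz2) rose, 4 of them also with T cell scaling. Their part in the Fc receptor calls was not tested. Pigr had 20, 4, 677, 942 and 985 reads in Tumor, against 6856, 24439, 118, 25 and 55 in WT, and its fitted log2 value was -3.31 ± 1.47 (edgeR adjusted p = 0.282). Pigr was highest in WT replicates 1 and 2, not in the Igha-rich libraries, and the epithelial list (0 of 12 called) summed to 41.2 to 4703 CPM in Tumor and 148 to 33090 CPM in WT.

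The joining and switching machinery was not called. Of 20 genes 18 were tested and 0 passed. Rag1, which cuts the segments for joining, had 16, 11, 24, 38 and 6 reads in Tumor, against 29, 19, 22, 10 and 178 in WT (log2 fold change -2.29 ± 0.95, edgeR adjusted p = 0.247). Rag2, its partner, had 2, 0, 0, 2 and 0 reads in Tumor, against 22, 4, 2, 7 and 62 in WT. Both were highest in WT replicate 5, the library with most Ighd5-7 reads. Dntt had the lowest adjusted p of the listed genes, at a log2 fold change of -3.47 ± 0.98 (SE, edgeR adjusted p = 0.0843). Its reads were 6, 2, 12, 23 and 1 in Tumor, against 25, 73, 140, 20 and 26 in WT, highest in WT replicate 3. Of 16 genes of the surrogate light chain and B cell receptor signalling 13 were tested and 0 were called, with Igll1, a surrogate light chain gene, at -2.73 ± 1.15 (adjusted p = 0.252) and Btk, a B cell receptor kinase, at -1.81 ± 0.80 (adjusted p = 0.277). The T cell list had 8 of 14 tested genes called and the sort list 1 of 5 (Il2ra), each higher in Tumor, where 293 of 21414 genes were.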

How the data were processed

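The deposited values were raw counts of reads per gene, not normalized, from 10 Smart-seq2 libraries. Per the submitters' processing notes the build was mm10 and the tools included featureCounts 1.5.0-p3 and the aligner HISAT2 2.0.5. Whether strand was used, how reads on several genes were handled and which annotation was counted are not given in the sources used here. The 10 single-sample tables held the same values as the table of the series. Groups and replicate numbers came from the titles. No pair of libraries agreed within sampling noise (lowest chi-square per degree of freedom 25.7 over 45 pairs).

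In R 4.3.3, edgeR 4.0.16 kept genes by filterByExpr (minimum count 10, minimum total 15), scaled by TMM (factors 0.772 to 1.41) and ran a robust 2-sided quasi-likelihood F test with group as the 1 term, adjusted by Benjamini-Hochberg over 21414 genes and called below 0.05. The common dispersion was 0.742. DESeq2 1.42.0, limma 3.58.1 (voom), other scalings and filters, and libraries left out were alternatives. The procedure was tested on simulated data. Shares have exact Clopper-Pearson 95% intervals; the limit for a count of 0 is 3 reads. Density is CPM divided by gene length in kilobases. The genes named were the members by role, the leading segments per library and called genes of 9 lists (T cell, sort, plasma cell, B cell, macrophage, epithelium, antibody transport and Fc receptors, recombination, B cell receptor signalling). The members and lists were chosen with earlier results of these data known. All 161 members matched GENCODE M21 by coordinates.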

Additional observations from a re-analysis of the deposited data

Results flagged for a closer look

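In groups of 5 libraries, a level was listed where the gap from the highest or lowest library to the next, divided by the range of the group, exceeded 0.71. Of 27 groups examined 17 were listed. The limit is meant to list about 1 in 20 groups of normally distributed values. CPM values of sparse counts need not be so distributed, so the count of 17 is not set against that rate. Genes of one library are also not independent of each other.

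In Tumor, replicate 1 stood above the others for Igha (0.997), Igkc (0.984), Jchain (0.972), Iglc1 (0.939), Ighg2b (0.916) and Ighg1 (0.743). Replicate 5 did so for Ighg2c (0.962), replicate 3 for Ighg3 (0.779) and Ighe (0.771), and replicate 4 for Iglc2 (1.0), where the other 4 libraries had no read. In WT, replicate 3 stood above the others for Jchain (0.916), Igkc (0.909), Iglc1 (0.87), Igha (0.867), V segments per kilobase (0.815), Ighg2c (0.814) and Ighg2b (0.726).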

How the results depend on the processing

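No member was called with TMM scaling, and the count stayed 0 with each library left out in turn (range 0 to 0), with the replicate block and with limma voom. It was 7 with T cell scaling, 10 with DESeq2, 7 without a filter and 1 (Igkv13-85, of 28 with an adjusted p) without WT replicates 1 and 2. The count over all genes, 340, was 19692 with T cell scaling, 2172 with DESeq2, 820 without a filter, 1993 without WT replicates 1 and 2, 1325 without WT replicates 3, 4 and 5, and 52 at an adjusted p below 0.01. It ran from 65 to 417 with 1 library left out, and was lowest without Tumor replicate 3. With the replicate block it was 141. Same-numbered libraries did not deviate together (correlations -0.13, 0.0060, -0.090, -0.031 and 0.038). Whether they share more than a number was not tested.

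T cell scaling moves all genes down together (median -3.72), and by that shift the log2 fold change was -1.59 for Ighm, -1.70 for Ighg2b, -0.54 for Prdm1, -0.55 for Tnfrsf13b and -0.0013 for Fcgr4. The cause of the other turned signs was not tested. Ighg2b was -1.52 with limma voom, -1.90 with the replicate block and -1.46 without Tumor replicate 1 (range with 1 library left out -1.46 to 1.97). Without WT replicates 3, 4 and 5, Igha was 5.63, Igkc 4.49 and Jchain 3.74 ± 3.09 (SE, edgeR adjusted p = 0.973). In that fit 0 of 47 members tested were called, where 1325 of 30040 genes were. Tumor replicates 2 to 5 had Igha at 0.387 to 4.91 CPM, below WT replicates 1 and 2 at 6.29 and 6.54 CPM, so its positive value came with Tumor replicate 1. Without WT replicate 3, Igha was 0.48 and Igkc 0.59; with 1 library left out Igha ran from -9.13 to 0.48, Igkc from -7.02 to 0.59 and Jchain from -7.11 to -0.17. Ighm kept its sign with each library left out (1.33 to 1.91). Of 279 fold changes of named genes under alternatives, 220 kept direction and call, 40 lost the call, 6 gained it and 13 reversed. Of 40 leading V shares under another read minimum or per kilobase, 23 moved beyond their interval or passed to another leading segment. Of 29 isotype and light chain shares per library, 10 moved beyond their interval when taken per kilobase. V, D, J and lambda members did not pass the filter, so no test with it covers them.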
